A study of Mus musculus with 6 samples.

Results

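The 8 genes described here encode the C/EBP family members Cebpa, Cebpb, Cebpd, Cebpe and Cebpg and the granulocyte transcription factors Gfi1, Spi1 and Runx1, and were taken by name from a table of 49585 mouse genes. All 8 were found by symbol, and all 8 were among the 15812 genes with enough counts to be tested. Their expression was measured by RNA-seq in 6 libraries of mouse leukemia cells of the acute myeloid kind. All 6 carried the driver KMT2A-MLLT3, which joins part of a histone methyltransferase gene to MLLT3, came from the marrow of diseased mice and were grown with mouse interleukin 3, interleukin 6 and stem cell factor. The group named DOT1L Low held cells sorted for low expression of introduced DOT1L, a histone H3 methyltransferase, and the group named DOT1L High held cells sorted for high expression. The third group is named NT, which the labels neither expand nor describe on its own, so transduction and sorting of NT cells are unknown. The titles give 2 leukemias, K3117 and K3174, each with 1 library per group, and the shared protocol has cells collected 3 days after the sort, without saying how this applies to NT. Strain, age, the promoter of the construct and whether each K number is 1 mouse are not stated. The p-values measure the spread left between these samples after the difference between leukemias is fitted, partly borrowed from other genes. That spread may be technical.

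C/EBP proteins are leucine zipper factors that bind DNA as dimers. In marrow, C/EBP alpha starts the granulocyte and monocyte programme in progenitors, C/EBP epsilon is needed for the later neutrophil stages that make secondary granules, and C/EBP beta takes part when infection drives neutrophil output. GFI1 is a zinc finger repressor that favours neutrophil over monocyte fate, PU.1 (the product of Spi1) is an ETS factor needed by all myeloid cells, and RUNX1 binds DNA with its partner CBFB at many of the same myeloid promoters.

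Library totals were between 22908445 and 33265848 counts, and levels below are CPM, counts scaled to 1 common library size with TMM factors. The smallest count of any of the 8 genes was 339 (Cebpe in K3117 NT). Mouse Dot1l did not follow the order of the labels, with 127.8, 184 and 149.8 CPM in NT, Low and High of K3117 and 158, 152 and 136 CPM in those of K3174. The labels do not say whether the introduced DOT1L is counted on the mouse gene. All 8 leukemia and haematopoietic markers listed were among the tested genes and summed to between 1881 and 2193 CPM. That level sum hides opposite moves. For High against NT, 4 of the 8 passed as higher and 3 as lower (all genes 10.0% and 7.32%). Their log2 fold changes ran from -1.49 to 1.73. Among markers of other cells, Cd3e, Cd8a, Ncr1 and Ms4a1 had no count in any library. The 10 T and NK cell markers summed to between 13.6 and 25.6 CPM in NT, 28.2 and 47.6 CPM in Low and 45.4 and 56.2 CPM in High. Nkg7, a granule membrane protein of cytotoxic cells, carried most of that sum, with 7.70 and 22.1 CPM in NT and 42.7 and 54.8 CPM in High. Lck, a T cell kinase and the other tested gene of that list, passed as lower (5.17 and 3.28 CPM in NT, 2.31 and 1.35 CPM in High). The 9 B cell markers summed to between 168 and 252 CPM in NT, 103 and 141 CPM in Low and 62.3 and 63.9 CPM in High. That sum rested on Ighm, an immunoglobulin heavy chain gene, at 239 and 150.4 CPM in NT and 48.6 and 51.7 CPM in High, which was the 1 of 6 tested B cell markers that passed, and the median of the 6 was -0.05. The 9 stromal markers summed to between 152 and 195 CPM in NT, 126 and 213 CPM in Low and 115 and 182 CPM in High. Of them, Col1a2, Col3a1 and Cxcl12 were at 0. Only 2 had enough counts to be tested, and neither passed for High against NT. The 8 erythroid markers summed to at most 19.2 CPM. The part of these genes in the results was not tested. In bulk libraries, a change in the number of cells of one kind and a change in RNA per cell cannot be told apart.

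The DNA-binding region is what makes the C/EBP genes a family, and it is also where their reads could be mistaken for each other. The 90 coding bases of Cebpe with the closest matches in Cebpa, Cebpb and Cebpg are shown beside those matches, 5′ to 3′ from the GENCODE transcripts of GRCm38, with capitals where all 4 genes share the base.

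Cebpe: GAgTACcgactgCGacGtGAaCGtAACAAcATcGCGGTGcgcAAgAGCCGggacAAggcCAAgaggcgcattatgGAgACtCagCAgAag
Cebpa: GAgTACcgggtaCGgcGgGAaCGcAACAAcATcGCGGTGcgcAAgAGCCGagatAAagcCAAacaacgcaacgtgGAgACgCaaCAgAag
Cebpb: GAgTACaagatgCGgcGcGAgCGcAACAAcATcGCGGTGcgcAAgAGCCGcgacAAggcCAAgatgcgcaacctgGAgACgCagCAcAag
Cebpg: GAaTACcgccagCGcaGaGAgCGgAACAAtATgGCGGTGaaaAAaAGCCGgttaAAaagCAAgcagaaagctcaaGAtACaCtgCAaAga

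Of the 90 bases, 45 were the same in all 4 genes. Against Cebpe, 83.3% of bases were identical in Cebpb, 80.0% in Cebpa and 60.0% in Cebpg. The longest exact run shared by any pair of the 5 family transcripts was 29 bases, between Cebpa and Cebpb, and Cebpe shared at most 26 bases with another member. Reads were 150 bases long, so no whole read within these transcripts could match 2 members exactly.

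Cebpe, Gfi1, Cebpd, Cebpb, Spi1 and Runx1 were higher in the libraries labelled High than in NT, and Cebpa and Cebpg did not pass the test in either direction. The comparison is between library labels: mouse Dot1l was not highest in High in either leukemia, and transduction and sorting of NT cells are unknown. By edgeR, 6 of 8 factors were higher and none lower, where 17.3% of the 15812 tested genes passed, 10.0% higher and 7.32% lower. None of the 8 was lower at an unadjusted p under 0.05 or by DESeq2 either. With library sizes alone or upper quartile factors, 5 of 8 passed, without Runx1. In a fit without the leukemia as a block, 3 of 8 passed (Cebpd, Gfi1 and Spi1). The median log2 fold change of the 8 was 0.79, beside -0.01 for all tested genes. All 6 higher factors lay in the order NT, Low, High in both leukemias, an order that 12.7% of tested genes had rising and 11.0% falling, or 23.8% in all. The 6 had passed as higher in High than in NT in these same libraries, which favours that order. It is therefore no separate support, and the share over all genes is not a like reference. The High and NT libraries did not overlap in 7 of 8 factors (50.6% of tested genes), Low and NT in 6 of 8 (31.6%) and High and Low in 6 of 8 (36.4%). These counts take either direction, and for Cebpg both High libraries lay just below both Low libraries.

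**Figure D1:**
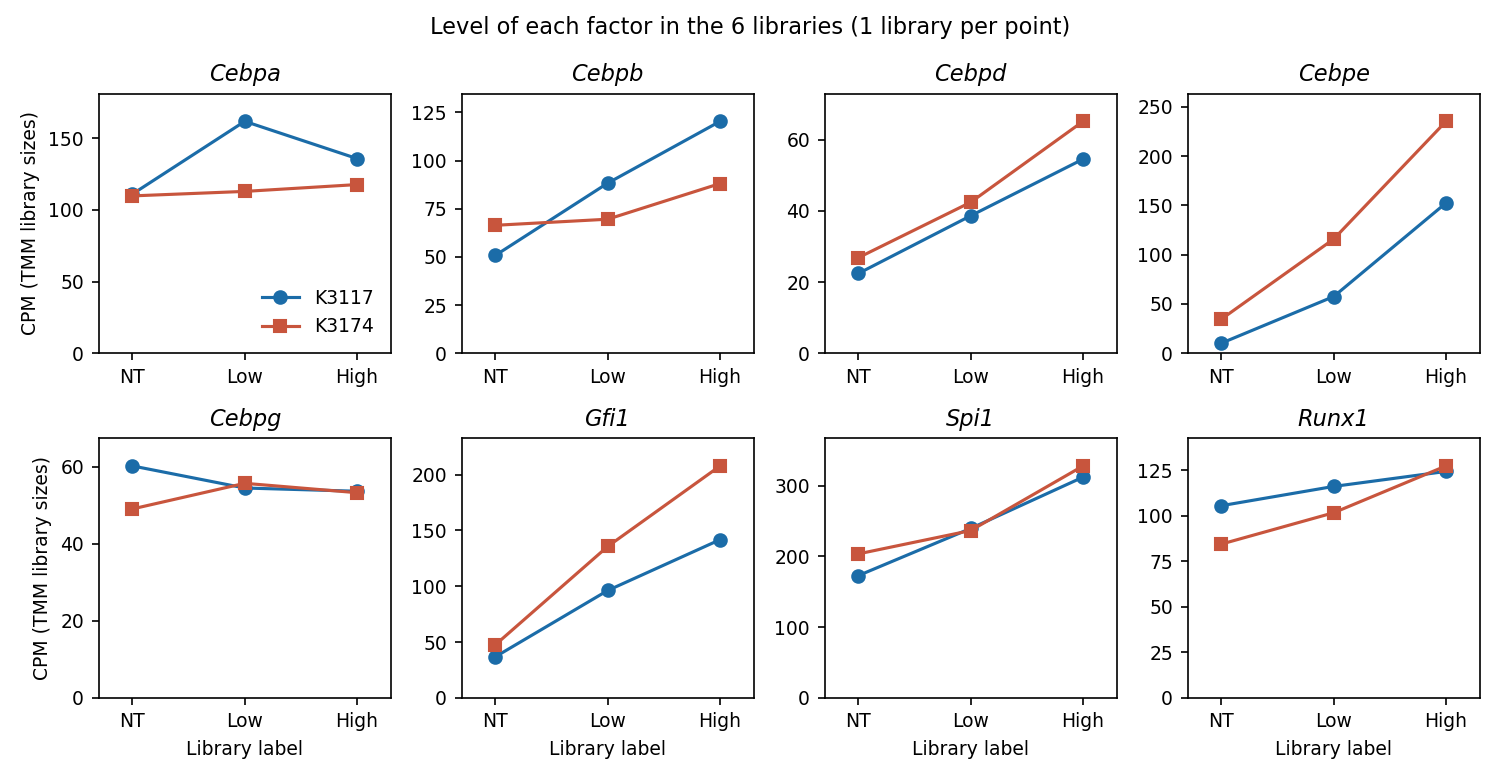
Level of each of the 8 factors, in CPM on TMM library sizes, against the library label, with 1 point per library and a line per leukemia (blue circles K3117, red squares K3174). Cebpe climbs from 10.2 and 34.6 CPM in NT to 152 and 235 CPM in High, while Cebpg lies between 49.0 and 60.2 CPM in all 6 libraries.

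Cebpe (ENSMUSG00000052435.6, chromosome 14, 54710360 to 54712174, minus strand), the late granulocyte member, had the largest change of the 8. The NT, Low and High libraries of K3117 had 10.2, 57.5 and 152 CPM. Those of K3174 had 34.6, 116 and 235 CPM. Both High libraries lay above both Low libraries, which lay above both NT libraries. The fitted rise was 9.87-fold for High over NT (log2 3.30 ± 0.22 SE, adjusted p = 2.58e-06), 4.20-fold for Low over NT (2.07 ± 0.21, adjusted p = 0.000384) and 2.35-fold for High over Low (1.23 ± 0.20, adjusted p = 0.004). Of all tested genes, 1.15% differed as much or more between High and NT. Without the leukemia as a block, the change over NT was 3.13 with an adjusted p of 0.0582.

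Gfi1 (ENSMUSG00000029275.17, chromosome 5, 107716657 to 107726036, minus strand), the neutrophil repressor, moved by nearly the same amount in each leukemia. NT, Low and High gave 36.8, 96.2 and 142 CPM for K3117, against 47.5, 136 and 208 CPM for K3174. The log2 differences from NT within a leukemia were 1.39 and 1.51 for Low and 1.94 and 2.13 for High, in K3117 and K3174 respectively. No library of one label overlapped with another label. The fitted rise was 4.10-fold for High over NT (adjusted p = 1.19e-06) and 2.73-fold for Low over NT (adjusted p = 0.000178), so the step from NT to Low was wider than that from Low to High (1.50-fold, adjusted p = 0.0119). By p-value, Gfi1 ranked 3 among 15812 genes in the comparison of Low with NT.

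A430072P03Rik, a noncoding gene on the opposite strand that shares 101 exonic bases with Gfi1, was counted in the same libraries. Across the labels it had 1.68, 3.40 and 6.98 CPM for K3117 and 1.49, 6.03 and 10.4 CPM for K3174. Its rise for High over NT was 2.39 on the log2 scale (adjusted p = 0.000112). The counts of A430072P03Rik equalled between 3.13% and 4.99% of those of Gfi1, and as the use of strand in counting is not given, reads of the pair cannot be told apart over the shared bases.

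The window from 250 bases before to 50 bases after a RefSeq start of Gfi1 is shown because Gfi1 rose in every comparison of the labels. It lies at chr5:107725756-107726055 on the minus strand (GRCm38.p6), and capitals mark a match to the C/EBP motif.

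Gfi1: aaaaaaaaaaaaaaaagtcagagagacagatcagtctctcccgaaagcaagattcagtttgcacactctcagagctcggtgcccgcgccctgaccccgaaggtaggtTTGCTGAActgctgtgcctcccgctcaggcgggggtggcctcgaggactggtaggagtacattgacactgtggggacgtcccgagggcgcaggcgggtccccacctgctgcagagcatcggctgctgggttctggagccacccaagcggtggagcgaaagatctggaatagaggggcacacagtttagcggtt

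Motifs were searched on both strands as TTNCNNAA for C/EBP, TGTGGT for RUNX, GAGGAA for PU.1 and AAATCA for GFI1. The C/EBP match begins 143 bases before the start and overlaps no other match, and 40.7% of 32851 promoter windows of this length hold that motif. The window held none of the other 3 motifs, and a second RefSeq start of Gfi1 (chr5:107724294-107724593) held none of the 4. RefSeq windows were found for 5 of the 8 genes, and those of Cebpa, Cebpb and Cebpg held none of the 4 motifs.

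Cebpd (ENSMUSG00000071637.5, chromosome 16, 15887286 to 15891031, plus strand), a member known for its acute induction by cytokines, rose in step in the 2 leukemias. From NT through Low to High it had 22.4, 38.6 and 54.5 CPM for K3117, and 26.8, 42.4 and 65.1 CPM for K3174. The labels did not overlap, and the log2 difference of High from NT was 1.28 in each leukemia. The fitted changes were 2.43-fold for High over NT (adjusted p = 4.39e-05), 1.65-fold for Low over NT (adjusted p = 0.0105) and 1.47-fold for High over Low (adjusted p = 0.0251). Its opposite-strand neighbour Spidr, which shares 562 exonic bases with Cebpd, lay between 45.0 and 48.7 CPM in all 6 libraries.

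Cebpb (ENSMUSG00000056501.3, chromosome 2, 167688915 to 167690418, plus strand), the member of emergency granulopoiesis, moved further in K3117 than in K3174. Its levels were 50.8, 88.3 and 120.4 CPM in NT, Low and High of K3117, and 66.4, 69.6 and 88.1 CPM in K3174. The K3117 Low library lay just above the K3174 High library. The difference of High from NT was thus 1.24 on the log2 scale in K3117 and 0.41 in K3174, and with 1 library per label and leukemia that gap has no test. The fitted rise for High over NT was 1.76-fold (0.81 ± 0.18, adjusted p = 0.00819). Low over NT (1.33-fold, adjusted p = 0.332) did not pass, nor did High over Low (1.32-fold, 0.307). The former did pass by edgeR without a filter on low counts (adjusted p = 0.0428), at a log2 fold change of 0.43, beside 0.42 with the filter. That fit gave much smaller adjusted p-values elsewhere, such as 6.09e-106 for Cebpe in High against NT, so the pass is no added support. Without K3174 NT, the log2 fold change of Cebpb for Low over NT was 0.83, in a fit where K3117 NT was the only NT library. With the K3117 NT library left out, the rise for High over NT was 0.43, and without the block it had an adjusted p of 0.104. Cebpb shares 312 exonic bases with the opposite-strand gene Tmem189, which lay between 33.4 and 49.4 CPM and did not pass (0.33, adjusted p = 0.147).

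Cebpa (ENSMUSG00000034957.10, chromosome 7, 35119293 to 35121928, plus strand), the factor of granulocyte and monocyte commitment, had nearly equal levels in the NT libraries, 111 CPM in K3117 and 109.7 CPM in K3174. Low and High of K3117 had 162 and 136 CPM, and those of K3174 had 113 and 118 CPM. The High libraries lay above the NT libraries, and the K3117 Low library was the highest of the 6. The log2 fold change was 0.19 for High over NT (95% interval of the fold 0.931 to 1.40, adjusted p = 0.403) and 0.29 for Low over NT (0.999 to 1.51, adjusted p = 0.38). Leaving out K3174 NT brought the latter to 0.47, which passed in a fit where K3117 NT was the only NT library.

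Cebpg (ENSMUSG00000056216.9, chromosome 7, 35046422 to 35056573, minus strand), a member that lacks an activation domain and pairs with the others, showed no common direction from NT. K3117 had 60.2, 54.5 and 53.6 CPM for NT, Low and High, and K3174 had 49.0, 55.7 and 53.2 CPM. The NT libraries were the highest and the lowest of the 6. High against NT gave a log2 fold change of -0.03 ± 0.13, with a 95% interval of the fold from 0.803 to 1.20 (adjusted p = 0.927), and its sign turned when single libraries were left out.

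Spi1 (ENSMUSG00000002111.8, chromosome 2, 91082390 to 91115756, plus strand), the gene of PU.1, had the highest CPM of the 8 in all 6 libraries. NT, Low and High of K3117 gave 173, 239 and 312 CPM, and K3174 gave 203, 236 and 328 CPM. The Low libraries were close to each other and stood between those of NT and High without overlap. High over NT was 1.70-fold (0.77 ± 0.12, adjusted p = 0.000818), with 0.85 in K3117 and 0.69 in K3174. Low over NT (1.27-fold, adjusted p = 0.182) and High over Low (1.34-fold, adjusted p = 0.0637) did not pass by edgeR. For the latter the adjusted p was 0.025 by DESeq2 and 0.03 by edgeR without a filter on low counts. Without that filter its log2 fold change was 0.40, beside 0.43 with it.

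Runx1 (ENSMUSG00000022952.16, chromosome 16, 92601466 to 92826149, minus strand), the core binding factor, had the smallest of the 6 rises. With 105, 116 and 124 CPM in K3117 and 84.4, 102 and 127 CPM in K3174, it rose along the labels in both. Every High library lay above every Low and NT library, and the K3117 NT library lay above the K3174 Low library. The rise for High over NT was 1.33-fold (0.42 ± 0.12, adjusted p = 0.0404), while neither Low over NT (0.20, adjusted p = 0.619) nor High over Low (0.22, 0.489) passed. This call was lost with library sizes alone (adjusted p = 0.0778), with upper quartile factors (0.101), with a mean CPM of at least 5 (0.0546), without the block (0.185) and without any 1 library other than K3117 NT (0.0582 to 0.583). Upper quartile factors also moved the median of all genes to -0.11, and 43.9% of 2953 calls were then higher, against 57.8% of 2741.

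Runx1 has 2 RefSeq start regions in the table, and the upstream one is shown because it held a repeated RUNX motif. It lies at chr16:92826025-92826324 on the minus strand (GRCm38.p6), and capitals mark the matches.

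Runx1: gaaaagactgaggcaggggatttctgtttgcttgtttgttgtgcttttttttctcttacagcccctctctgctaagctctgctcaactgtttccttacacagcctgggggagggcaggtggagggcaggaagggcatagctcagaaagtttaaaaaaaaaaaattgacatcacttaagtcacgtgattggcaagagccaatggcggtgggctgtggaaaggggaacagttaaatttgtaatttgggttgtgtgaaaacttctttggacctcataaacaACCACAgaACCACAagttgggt

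The 2 matches, written here as the reverse complement of the motif, begin 28 and 36 bases after the start and do not overlap, and 16.8% of promoter windows hold at least 1. The other start region of Runx1 (chr16:92697280-92697579) held 1 PU.1 match, a motif present in 28.3% of windows.

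**Figure D2:**
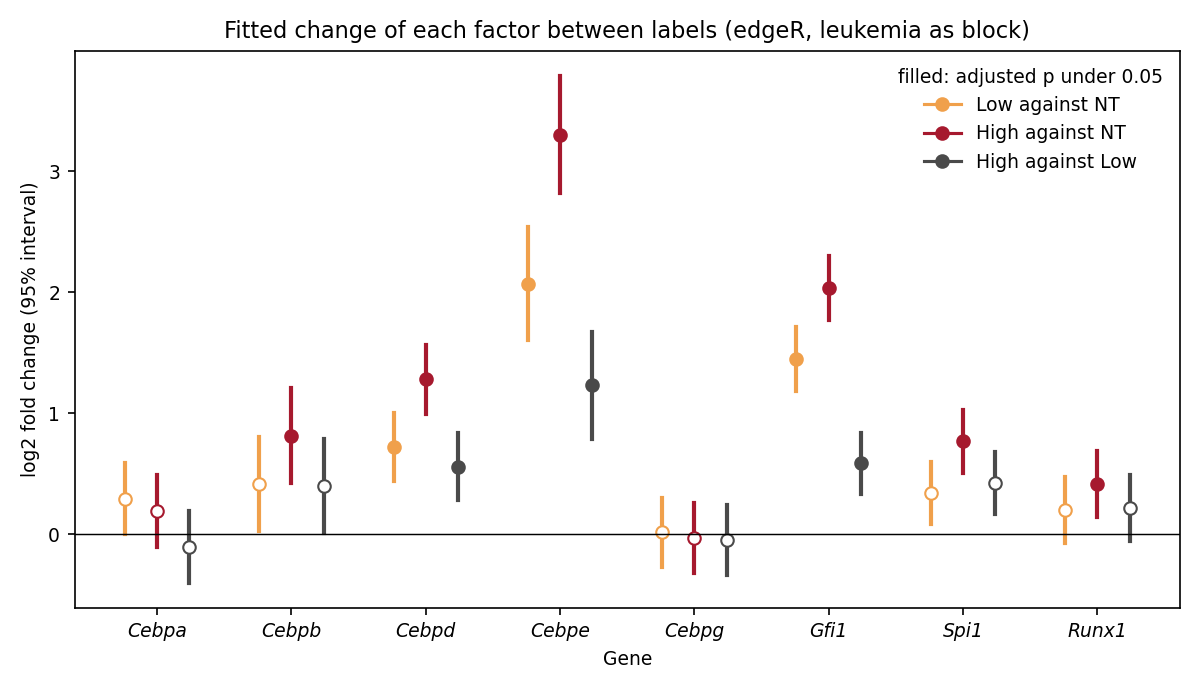
Fitted log2 fold change of each factor with its 95% interval for Low against NT (orange), High against NT (red) and High against Low (grey), from edgeR with the leukemia as a block. Filled points have an adjusted p under 0.05: 3 factors for Low against NT, 6 for High against NT and 3 for High against Low.

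For Low against NT, 3 of the 8 factors passed, Cebpe, Gfi1 and Cebpd, all higher, beside 3.34% of all tested genes in either direction, 2.05% higher and 1.29% lower. The median of the 8 was 0.38, beside -0.01 for all genes. For High against Low the same 3 passed, beside 5.48% of tested genes in either direction, 4.12% higher and 1.35% lower, with a median of 0.41 beside 0.00. These comparisons share libraries, so their values are set side by side only. Leaving out single libraries gave between 2 and 6 passing factors for Low against NT. Cebpd was lost without the Low library of K3117 or of K3174. Cebpa, Cebpb and Spi1 were gained without K3174 NT, where K3117 NT alone stands for NT and spread between NT libraries does not enter. For High against Low it gave between 1 and 5, and Cebpe passed each time. Gfi1 and Cebpd were lost there without K3117 Low, K3174 Low or K3174 High, Cebpd also without K3117 High, and Cebpb and Spi1 were gained without either NT library. Without the block none passed by edgeR in either comparison, with 4 and 2 of the 8 at an unadjusted p under 0.05.

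Between leukemias, Cebpe and Gfi1 were higher in K3174 than in K3117, and the other 6 factors did not pass, beside 9.37% of tested genes passing, 3.05% higher and 6.32% lower. The difference was 2.14-fold for Cebpe (1.10 ± 0.17, adjusted p = 0.00136) and 1.39-fold for Gfi1 (0.47 ± 0.10, adjusted p = 0.00762). For Cebpe the gap between leukemias was 1.76 on the log2 scale in NT, 1.01 in Low and 0.63 in High. For Gfi1 it was 0.37, 0.50 and 0.55. With 1 library in each cell of the design, these changes of the gap have no test. Gfi1 did not pass between leukemias without any 1 of the Low or High libraries (adjusted p from 0.0649 to 0.078). Without K3117 NT, Cebpa (-0.36) and Cebpb (-0.39) passed as lower in K3174. Leaving out K3174 NT instead gave -0.35 and -0.39. Both fits compare the leukemias over the same Low and High libraries, so they are 1 result.

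To set different genes side by side, CPM was divided by the length of the gene's annotated exons. On this scale the C/EBP family summed to 101 CPM per kilobase in K3117 NT and 129.5 in K3174 NT, and to 278 and 319.6 in High. Cebpe made up 8.15% of the family sum in K3117 NT, 24.9% in Low and 44.1% in High, and 21.5%, 45.9% and 59.3% in K3174. Cebpa went from 41.8% to 18.5% of the sum in K3117 and from 32.1% to 14.0% in K3174, while its own level was higher in High than in NT in both. The ratio of Cebpe to Cebpa per length was 0.195 in NT and 2.39 in High for K3117, and 0.67 and 4.25 for K3174. Without Cebpe, the sum of the other 4 members in High was 1.68 times that of NT in K3117 and 1.28 times in K3174. These are shares over 2 libraries per label, given as a description without a test.

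**Figure D3:**
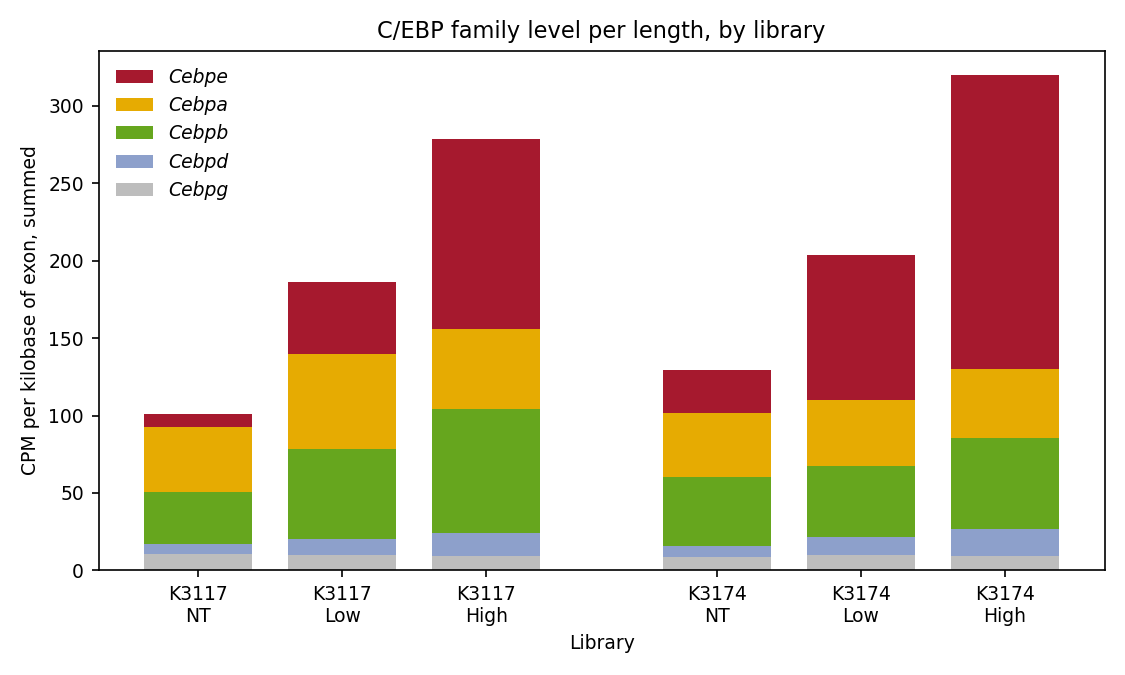
Level of the 5 C/EBP genes in CPM per kilobase of annotated exon, stacked, for each of the 6 libraries. Cebpe (dark red) grows from 8.21 to 123 in K3117 and from 27.9 to 189.6 in K3174, while Cebpa (yellow) lies between 41.6 and 61.3 in all 6.

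Per length, Spi1 was the highest of the 8 in both NT libraries, at 64.1 and 75.5 CPM per kilobase, followed by Cebpa and Cebpb, whose order differed between the leukemias. In High, Cebpe was first in both leukemias, at 123 and 189.6 CPM per kilobase, and Spi1 was second, at 116 and 122. With the longest coding transcript as the length, Spi1 stood above Cebpe in K3117 High, while Cebpe stood above Cebpa in the same libraries as before. Cebpd, Cebpg and Runx1 were the lowest 3 in every Low and High library, and their order relative to each other changed with the library and the length used.

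Partners and turnover factors of the 8 moved in both directions for High against NT, with 4 higher and 5 lower of 22 tested and a median of -0.01. For this and the lists that follow, the background over all tested genes was 10.0% higher and 7.32% lower, with a median of -0.01. All these lists were chosen with earlier results of these data known, so their counts are a description only. Gfi1b, the erythroid and megakaryocyte paralog of Gfi1, had 26.3, 15.3 and 6.67 CPM along the labels in K3117 and 21.4, 3.96 and 4.34 CPM in K3174. It fell by 2.16 ± 0.32 on the log2 scale (adjusted p = 0.000618), and the ratio of Gfi1 to Gfi1b in CPM went from 1.40 to 21.3 in K3117 and from 2.23 to 47.9 in K3174. Ets1, an ETS factor of lymphoid cells, rose by 1.86 ± 0.23, from 41.4 and 18.6 CPM in NT to 102 and 106 CPM in High. Fli1, another ETS factor, rose by 0.63 ± 0.12, and Fos, an AP-1 subunit, by 1.26 ± 0.23. The remaining calls were Trib1 (0.62), an adaptor for C/EBP alpha turnover, which was higher, and Spib (-2.11), Runx2 (-0.54), Runx3 (-0.63) and the GFI1 co-repressor Kdm1a (-0.40), which were lower. Those 5 were named after their values were seen. Cbfb, the partner of RUNX1, had a log2 fold change of -0.18 (adjusted p = 0.367), and Atf4 of 0.09 (adjusted p = 0.689).

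Other granulopoiesis factors passed in 7 of 19 tested members, 5 higher and 2 lower (all genes 10.0% and 7.32%), with a median of 0.04. Per3, a clock gene placed on this list, rose by 1.40 ± 0.20. Mxd1, an antagonist of MYC in maturing cells, rose by 1.10 ± 0.18, and Xbp1, a secretory factor, by 0.59 ± 0.12. Hoxa10, a homeobox gene of progenitors, fell by 0.81 ± 0.12 on the log2 scale, from 98.7 and 80.5 CPM in NT to 59.2 and 43.4 CPM in High. Myb (0.25, adjusted p = 0.236) and Ikzf1 (0.04, adjusted p = 0.875) did not pass.

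Factors of monocyte and dendritic fates passed in 6 of 16 tested members, 2 higher and 4 lower (all genes 10.0% and 7.32%), with a median of 0.10. Irf8, the monocyte and dendritic cell factor, went from 115 through 111 to 74.3 CPM in K3117 and from 176 through 85.0 to 62.9 CPM in K3174, and fell by 1.09 ± 0.20 on the log2 scale (adjusted p = 0.00273). Tcf4, the plasmacytoid dendritic cell factor, fell by 1.27 ± 0.11 on the log2 scale, and Nfil3, a bZIP repressor, by 0.84 ± 0.14. Tfec, a macrophage factor, rose by 1.07 ± 0.13. Zeb2 (-0.09) and Relb (0.02) did not pass.

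Factors of erythroid, megakaryocyte, mast and lymphoid fates passed in 6 of 13 tested members, 2 higher and 4 lower (all genes 10.0% and 7.32%), with a median of -0.05. Hlf, a bZIP factor of stem cells, fell by 2.77 ± 0.25 on the log2 scale, Mecom, a stem cell factor, by 1.30 ± 0.16, and Rag2, a lymphoid recombinase subunit on the same list, by 2.19 ± 0.36. Gata1, the erythroid and mast cell factor, rose by 1.68 ± 0.30 but stayed at 9.43 and 9.83 CPM in High. Gata2 (0.14) and Tcf3 (-0.37, adjusted p = 0.0849) did not pass.

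**Figure D4:**
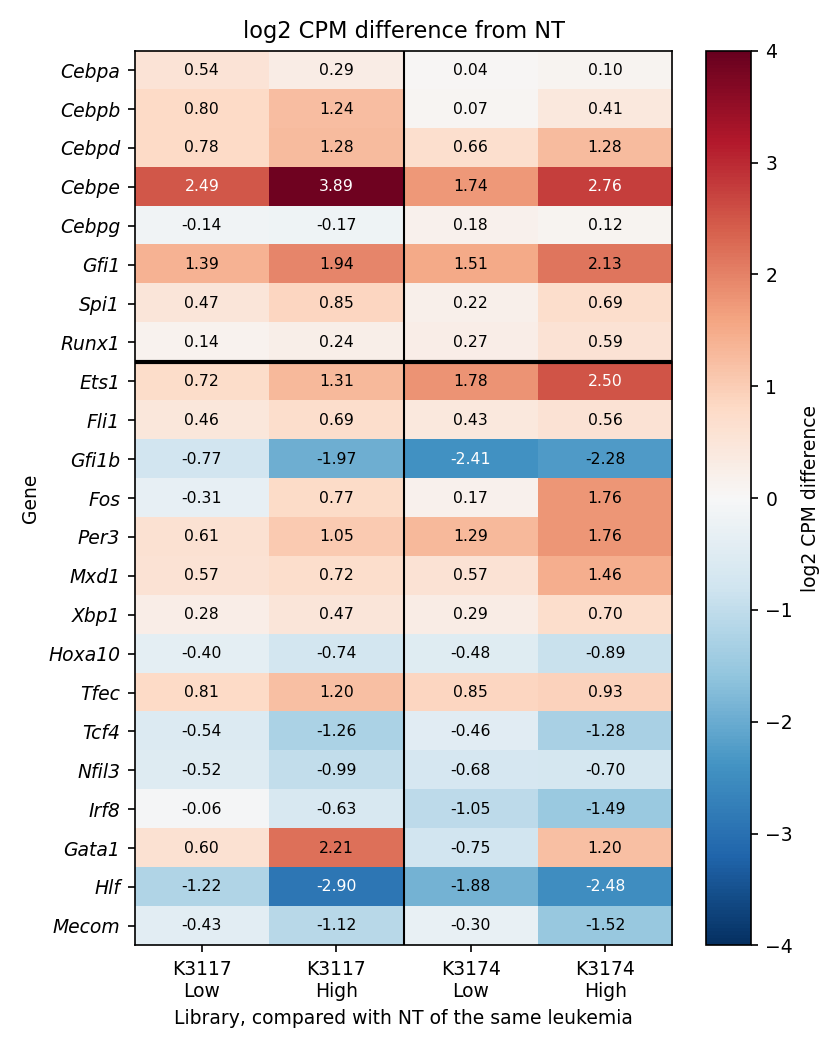
Difference of log2 CPM from the NT library of the same leukemia, for Low and High of K3117 and K3174, with the 8 factors above the line and 15 named partner and lineage factors below it. Cebpe and Gfi1 are positive in all 4 columns (1.39 or more), and Gfi1b, Tcf4, Nfil3, Irf8, Hlf, Mecom and Hoxa10 are negative in all 4.

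Of the genes known to be repressed by GFI1, 3 were higher and 4 lower of 15 tested (all genes 10.0% and 7.32%), with a median of 0.60 for High against NT. Meis1, a cofactor of HOX proteins, fell by 1.18 ± 0.12 on the log2 scale. Csf1r, which encodes the M-CSF receptor, rose by 1.40 ± 0.12, and Gfi1b and Ets1 moved as given above. Cdkn1a (-0.25, adjusted p = 0.272) and Id1 (0.30, adjusted p = 0.229) did not pass. The list shares Gfi1b, Ets1, Irf8, Csf1r and other genes with the lists above.

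Cytokine receptor genes of the granulocyte and monocyte line rose in 6 of 10 tested members (all genes 10.0%), and Flt3 fell (all genes 7.32% lower). The median was 0.83, and the log2 fold changes of the 10 ran from -5.89 to 1.70. Csf3r, the granulocyte colony-stimulating factor receptor, went from 18.6 through 31.1 to 50.2 CPM in K3117 and from 26.8 through 56.0 to 105 CPM in K3174. Its rise was 1.70 ± 0.15 for High over NT (adjusted p = 1.85e-05) and 0.90 ± 0.15 for Low over NT (adjusted p = 0.00685). Csf2ra, a receptor chain for granulocyte-macrophage colony-stimulating factor, rose by 1.15 ± 0.13. Il6ra (0.42, adjusted p = 0.0645) and Il6st (-0.33, adjusted p = 0.127) did not pass.

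Primary granule genes passed as higher in 8 of 11 tested members for High against NT, with a median of 1.98, and secondary granule and late neutrophil genes in 18 of 19, with a median of 4.40, beside 10.0% higher among all tested genes. No gene of either list passed as lower by edgeR. Prss57, a granule protease, had 5.35, 17.2 and 38.4 CPM along the labels in K3117 and 14.8, 56.0 and 96.5 CPM in K3174. Fcnb, a ficolin of neutrophil precursors, rose by 4.74 ± 0.25, and Clec5a, a myeloid lectin, by 1.98 ± 0.13. Ctsg, cathepsin G (0.17, adjusted p = 0.615), and Mmp8, a collagenase (0.01, adjusted p = 0.993), did not pass. For Low against NT, 7 of 11 primary granule and 10 of 19 late genes were higher, beside 2.05% of all tested genes.

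**Figure D5:**
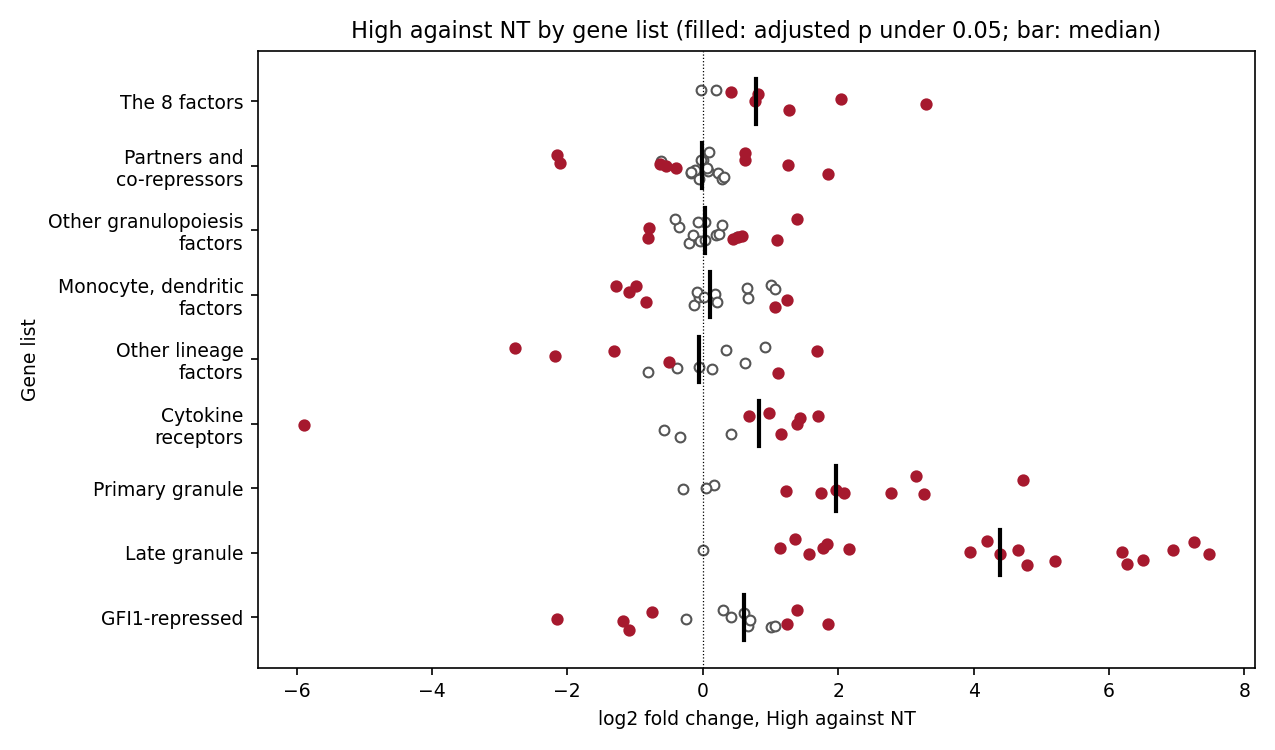
Log2 fold change for High against NT (horizontal axis) of every tested gene in the 8 factors and 8 supporting lists, with filled red points at an adjusted p under 0.05 and a black bar at the list median. The medians run from -0.05 for other lineage factors to 4.40 for late granule genes, with the 8 factors at 0.79.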

How the data were processed

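RNA from 6 libraries was sequenced as pairs of 150-base reads, per the labels' protocols. The authors deposited whole-number counts per gene, taken unchanged. Per the submitters' processing notes, the tools were kallisto, STAR, STAR-Fusion and DESeq2 with the mm10 build; the counting tool, annotation and strand setting are not given in the sources. Of 49585 gene IDs, 99.5% matched GENCODE M21 (GRCm38) without their version. Every library pair differed by more than sampling noise (smallest chi-square over its degrees of freedom 26.9).

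Tests used edgeR 4.0.16 in R 4.3.3, with its expression filter, TMM factors (0.973 to 1.04) and a quasi-likelihood fit of the 3 labels with the leukemia as a block (2 residual degrees of freedom). The fit drew the spread of each gene partly from other genes (9.38 prior degrees of freedom). Genes passed at an edgeR adjusted p (Benjamini-Hochberg, over all 15812) under 0.05. SE is the fold change over the root of F, and within-leukemia log2 differences were taken with prior count 2. The fit was also run on simulated counts with the same spread for every gene and no difference between leukemias, so the block was not tested there. The pairing comes from the K number in the titles; deviations of equal numbers correlated at 0.57, 0.438 and 0.64 across genes. DESeq2 1.42.0, other scalings and filters, no block and leaving out each library were tried.

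The 8 genes and all lists were chosen with earlier results of these data known. Beside the 8, each of 8 supporting lists gave at most 4 named genes with the smallest p for High against NT and at most 2 by level that did not pass. Kilobase lengths are merged GENCODE exons. The matching coding stretch of 1 family member is not reported here.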

Additional observations from a re-analysis of the deposited data

Results flagged for a closer look

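For Cebpg the leukemias moved in opposite directions by more than counting error, which leaves out the wider spread between libraries. The log2 CPM difference of High from NT was -0.17 in K3117 and 0.12 in K3174, and that of Low from NT was -0.14 and 0.18. Mouse Dot1l did the same for High against NT, with 0.23 in K3117 and -0.21 in K3174. Each value rests on 1 library per label, and the difference between the leukemias was not tested.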

How the results depend on the processing

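DESeq2, library sizes alone and upper quartile factors kept the same factors in every comparison of labels, other than Runx1 as given above and Spi1 for High against Low. Without the replicate block, 493 genes and 3 of the 8 factors (Cebpd, Gfi1 and Spi1) passed for High against NT by edgeR. For Low against NT it was 0 genes and 0 factors (950 genes at an unadjusted p under 0.05, and 583 genes by DESeq2 with the block), and for High against Low 0 and 0 (1238 genes, and 878 by DESeq2 with the block). Without a filter on low counts 1071 and 1425 genes passed for Low against NT and High against Low. That added Cebpb and Spi1 in turn, with little change in their fold changes. With a mean CPM of at least 5 the numbers were 343 and 522, and 849 between leukemias. Leaving out each library gave 1927 to 4394 genes for High against NT, 144 to 1483 for Low against NT, 335 to 1982 for High against Low and 829 to 2642 between leukemias. The factors that passed numbered 5 to 6, 2 to 6, 1 to 5 and 1 to 4 in that order. The sign of Cebpg turned in each comparison (from -0.18 to 0.13, -0.13 to 0.18, -0.15 to 0.052 and -0.16 to 0.0208, and to -0.0139 for Low against NT with upper quartile factors), as did Cebpa for High against Low (-0.30 to 0.0892) and Cebpb between leukemias (-0.39 to 0.0223). None of those 3 passed with all 6 libraries in these comparisons, and Cebpb passed at the lower end. The cause was not tested. The order of the labels held for the same 6 factors under both other scalings, and with the longest coding transcript as length, an alternative chosen after seeing the data, the Cebpe share of the family lay between 7.98% and 59.0%. Each label had 2 libraries, which limits the precision, and no reduced depth was tried.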

Other observations

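Cebpa and Cebpg lie 62719 bases apart on chromosome 7 and were the 2 factors that did not pass between labels. Among pairs of the 8, the profiles of Cebpb and Spi1 over the 6 libraries were the closest, with a root mean square difference of 0.186 in log2 CPM after centring each gene on its mean. Cebpg and Runx1 were nearly as close, at 0.192, and Cebpe and Cebpg were the farthest apart, at 1.54. This distance grows with the size of a gene's own changes. Around their own means, Cebpe spread by 1.51, Runx1 by 0.201 and Cebpg by 0.0877.

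The genes most like each factor by the same measure, among 9986 others with a mean of at least 5 CPM, were named for every factor. For Cebpe they were Glt1d1 (0.225), Rps6ka2 (0.276) and Mgst2 (0.278), beside a spread of Cebpe around its own mean of 1.51. For Gfi1 they were Trem3 (0.0643), Dgkg (0.1295) and Lbp (0.146), beside 0.888. For Cebpd they were Nod1 (0.0773), Man1c1 (0.0818) and Stk10 (0.0826), and for Spi1 Triobp (0.0386), Tmbim6 (0.0485) and Rnaset2b (0.051). For Cebpb they were Iqsec1 (0.0816), Bcorl1 (0.1055) and S1pr2 (0.122), and for Runx1 Nrbp1 (0.0276), Foxo4 (0.0376) and Pcnx (0.0398). Cebpa was nearest to Maff (0.0444), Pcx (0.0729) and Zbtb40 (0.0787), and Cebpg to Pot1a (0.0206), Pmaip1 (0.0244) and Mitd1 (0.0371). The 6 libraries share 2 leukemias, so these distances are a description without a test. A small distance for a factor that changed little, such as Cebpg, does not make its neighbours closer matches.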
